A study of Mus musculus with 20 samples.

Results

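The measurements below compare how NIL and NIP motor neurons, both grown from mouse embryonic stem cells, responded to 12 h of cyclopiazonic acid (CPA). The comparison uses 8 of the 20 libraries of the series, 2 in each of 4 groups: untreated NIL, NIL with 20 µM CPA, untreated NIP and NIP with 20 µM CPA, all at 12 h. Its value for each gene is the CPA response of NIP minus that of NIL on the log2 scale, here called the line difference, with the replicate number of the titles as a block. The labels call NIL spinal and NIP cranial motor neurons, treated on day 2 of culture. Titles and extraction text give the later times as 12 h and 36 h, whereas treatment text and design give 6 h and 12 h, and the titles were followed. The labels do not say whether replicates were separate cultures, so the tests see only the spread among these libraries, which may be technical. In the published system that uses these names, Neurog2, Isl1 and either Lhx3 (NIL) or Phox2a (NIP) are expressed from inducible transgenes. The labels used here do not say so, and counts by symbol cannot separate transgene from endogenous reads of these genes.

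CPA blocks the calcium pump of the endoplasmic reticulum (ER), which empties the ER of calcium and leaves proteins there misfolded. Cells answer with the unfolded protein response: the sensors IRE1, ATF6 and PERK raise ER chaperones and degradation factors, and PERK slows protein synthesis through eIF2α. That slowing favours translation of ATF4, which raises amino acid transporters, amino acid synthesis enzymes, tRNA synthetases and the factor CHOP (gene Ddit3). Spinal and cranial motor neurons are compared in such studies because some cranial motor neurons are known to survive longer in amyotrophic lateral sclerosis.

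The 8 libraries held 7996454 to 30321152 reads in genes, the lowest in untreated NIL replicate 2, and 16035 to 17260 genes with a count. Levels are CPM, gene counts scaled to the size of the library with TMM factors. The summed CPM of 4 spinal-type markers (Lhx3, Lhx4, Mnx1, Isl2) was 587 and 468 in untreated NIL against 15.2 and 16.1 in untreated NIP. Phox2a, a factor of cranial motor neurons, had 6 and 18 counts in untreated NIL against 3965 and 4785 in untreated NIP. Lhx3, a factor of spinal motor neurons, had 3 and 1 counts in untreated NIP and 0 in both CPA-treated NIP libraries. Markers of endoderm and endothelium, 19 genes, summed to 5284 and 12894 CPM in untreated NIL, 6525 and 19216 in CPA-treated NIL, 1102 and 3462 in untreated NIP and 700 and 4129 in CPA-treated NIP. They were thus higher in NIL and in replicate 2 of each group. In bulk RNA, fewer cells of a type and less RNA per cell cannot be told apart.

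No gene passed an adjusted p of 0.05 for the line difference, 0 of 14792 tested (0%), and the smallest adjusted p was 0.0755 (edgeR quasi-likelihood test). At an unadjusted p under 0.05 there were 730 genes (4.94%), 344 with a higher response in NIP (2.33%) and 386 with a lower one (2.61%). DESeq2 on the same counts called 51 genes, and edgeR with a block in each line called 24. Of these, 21 were shared (41.2% of the DESeq2 genes and 87.5% of the others). A DESeq2 adjusted p is printed below only for genes among those 51. DESeq2 did not call Asns, Atf3, Ppp1r15a, Isl1, Prph, Kcnq3 or Atp2b4. Of genes with a printed DESeq2 value, the block in each line called Ddit4 and Atf5 but not Xbp1, Slc7a5 or Psat1. The median line difference over all tested genes was 0.02, and the 5th and the 95th percentile were -0.94 and 0.79. A missed threshold does not show equal responses, so the intervals carry the information. For 8651 genes (58.5%) the 95% interval of the line difference lay within 1 log2 unit of 0, and the median standard error was 0.30.

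Each line alone gave many calls. In NIL, CPA changed 1174 genes (7.94%), 616 of them up (4.16%) and 558 down (3.77%). In NIP it changed 2083 (14.1%), 1116 up (7.54%) and 967 down (6.54%). A set of 501 genes rose in both lines, which was 81.3% of the rises in NIL and 44.9% of those in NIP, with median responses of 1.04 in NIL and 1.12 in NIP. Another 318 fell in both, 57.0% of the NIL falls and 32.9% of the NIP falls. These NIL and NIP comparisons share no library. A further 1617 genes passed in NIL alone or in NIP alone. The line difference itself passed for 0 of them under edgeR, and 393 (24.3%) had an unadjusted p under 0.05. In 714 of the 1617 the interval lay within 1 log2 unit of 0, so a call in a single line did not by itself mark a line difference.

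**Figure D1:**
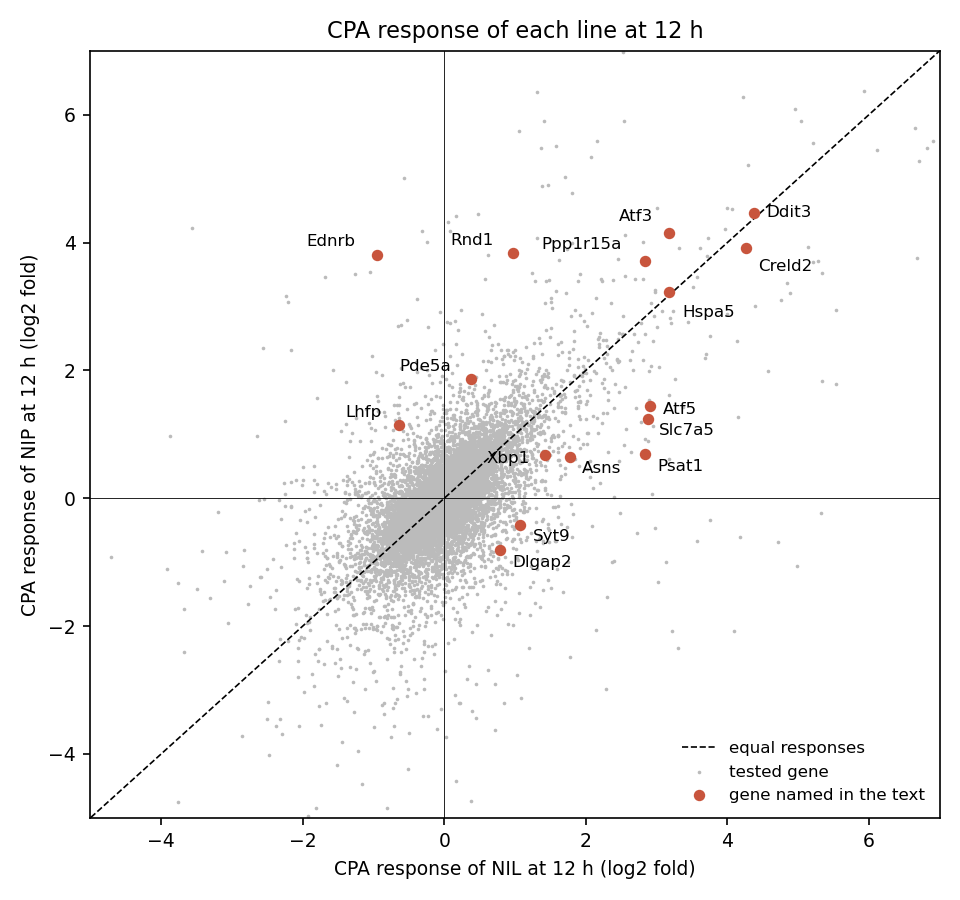
CPA response of NIL (x axis) against that of NIP (y axis) at 12 h, both as log2 fold, for the 14782 genes inside the axes, with 10 genes outside. Most genes lie near the dashed line of equal responses, Hspa5 and Ddit3 on it, Slc7a5, Psat1 and Atf5 below it and Ednrb, Rnd1 and Pde5a above it, and 0 genes passed the test of the difference.

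The ER chaperones rose in both lines. Of 29 chaperones and folding enzymes, 25 rose in NIL and 25 in NIP, against 4.16% and 7.54% of all genes. These 29 had median responses of 1.52 and 1.86 against -0.02 and -0.02 over all tested genes. Their median line difference was -0.01, or -0.19 to 0.22 over all alternatives, and 22 of the 29 intervals lay within 1 log2 unit of 0. Hspa5 (chr2:34771970-34777547, plus strand, GRCm38) encodes BiP, the main ER chaperone and a sensor of ER load. It measured 351 and 493 CPM in untreated NIL, 3169 and 4482 in CPA-treated NIL, 355 and 369 in untreated NIP, and 3165 and 3610 in CPA-treated NIP. The treated libraries of both lines lay above all untreated ones and overlapped each other. Hspa5 rose by 3.18 ± 0.26 (SE) in NIL and 3.22 ± 0.26 in NIP, and the line difference was 0.04 with a 95% interval from -0.66 to 0.74.

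Other members of the chaperone system gave intervals that also covered 0. Hyou1, a nucleotide exchange factor for BiP, had a line difference of -0.33 (interval -0.99 to 0.34). For Creld2, a secreted ER stress protein, it was -0.35 (-1.14 to 0.44). For Manf, a secreted ER protein with trophic action on neurons, it was -0.12 (-0.86 to 0.63), and for Sdf2l1, a partner of BiP, 0.24 (-0.62 to 1.10). Pdia5, Txndc5 and Fkbp11, folding enzymes chosen after their values were seen, were the only 3 of the 29 with an unadjusted p under 0.05. All were higher in NIP, as 2.33% of all genes were (0.85, 0.56 and 1.59, adjusted p 0.977, 0.985 and 0.950). Untreated NIP minus untreated NIL was -1.12 for Pdia5, -0.60 for Txndc5 and -1.03 for Fkbp11. Among 23 ER-associated degradation genes, 10 rose in NIL and 13 in NIP, against 4.16% and 7.54% of all genes. The median line difference of these 23 was 0.00. Herpud1, which organises the degradation complex at the ER membrane, rose by 3.51 in NIL and 3.31 in NIP, a line difference of -0.20 (-0.85 to 0.45). Derl3, a channel subunit, had 4 and 4 counts in untreated NIL and 5 and 0 in untreated NIP, too few for a fold, and 296 to 1010 counts in the treated libraries.

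The ER stress element, bound by ATF6 together with NF-Y, was searched on both strands as CCAAT and CCACG separated by 9 bases of any kind. It is present in 0.119% of 32851 RefSeq promoter windows of 300 bases (250 before to 50 after the annotated start, GRCm38.p6). Counted by gene, 0.137% of 27025 genes with a window hold the element. Of the 23 chaperone genes that matched a window by symbol, 7 hold it: Calr, Canx, Creld2, Dnajc3, Hsp90b1, Hspa5 and Pdia6 (30.4%). Hspa5 and Creld2 are shown because both rose strongly in both lines, with the 250 bases before the start, 5′ to 3′ on the gene's strand, and the match in capitals. The match lies 65 to 47 bases before the start of Hspa5 (chr2:34771840-34772089, plus strand) and 126 to 108 bases before that of Creld2 (chr15:88819396-88819645, plus strand), there on the opposite strand. Neither match overlaps one of the ATF4-type element described further on. A match is a description of letters, not evidence of binding.
Hspa5: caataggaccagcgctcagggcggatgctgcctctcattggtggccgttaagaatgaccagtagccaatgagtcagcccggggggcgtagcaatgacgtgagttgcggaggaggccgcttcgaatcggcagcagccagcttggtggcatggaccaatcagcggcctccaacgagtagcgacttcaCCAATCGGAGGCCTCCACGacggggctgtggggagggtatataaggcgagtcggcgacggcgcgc
Creld2: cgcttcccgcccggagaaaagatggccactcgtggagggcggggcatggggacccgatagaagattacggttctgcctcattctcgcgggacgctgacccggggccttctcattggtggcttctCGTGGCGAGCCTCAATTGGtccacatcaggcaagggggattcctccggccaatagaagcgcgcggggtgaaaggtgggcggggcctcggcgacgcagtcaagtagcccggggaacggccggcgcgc

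Of 17 sensors and transcription factors of the unfolded protein response, 10 rose in NIL and 13 in NIP, against 4.16% and 7.54% of all genes. The median line difference of these 17 was 0.05. Xbp1, whose mRNA is spliced by IRE1 to make a factor for ER expansion, lies at chr11:5520659-5525893 (plus strand). It measured 53.4 and 73.6 CPM in untreated NIL, 154 and 185 with CPA, 114 and 140 in untreated NIP, and 195 and 209 with CPA. Untreated NIP lay above untreated NIL without overlap, and the treated NIP libraries were the highest of all. Xbp1 rose by 1.43 ± 0.14 in NIL and by 0.68 ± 0.14 in NIP, and the line difference was -0.75 ± 0.20 (interval -1.17 to -0.33, unadjusted p 0.00166, adjusted p 0.335; DESeq2 adjusted p 0.0387). Each replicate set alone gave -0.75. In the separate 36 h libraries the line difference was 0.17 ± 0.20. Gene counts do not separate spliced from unspliced Xbp1.

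Atf6, a sensor that becomes a factor after cleavage, rose by 1.65 in NIL and 1.61 in NIP, with a line difference of -0.04 (-0.50 to 0.42). Atf4 rose by 2.41 and 1.78, with a line difference of -0.62 (-1.42 to 0.17). Without untreated NIP replicate 2, where Atf4 stood at 157 CPM against 72.3 in replicate 1, that value turned to 0.08. Ddit3, the gene of CHOP, rose from 6.90 and 13.9 CPM to 200 and 201 in NIL, and from 8.31 and 16.7 to 252 and 271 in NIP. The treated libraries of each line lay far above its untreated ones. The line difference of Ddit3 was 0.08 ± 0.45 (-0.88 to 1.04), and leaving out single libraries moved it to either side of 0.

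**Figure D2:**
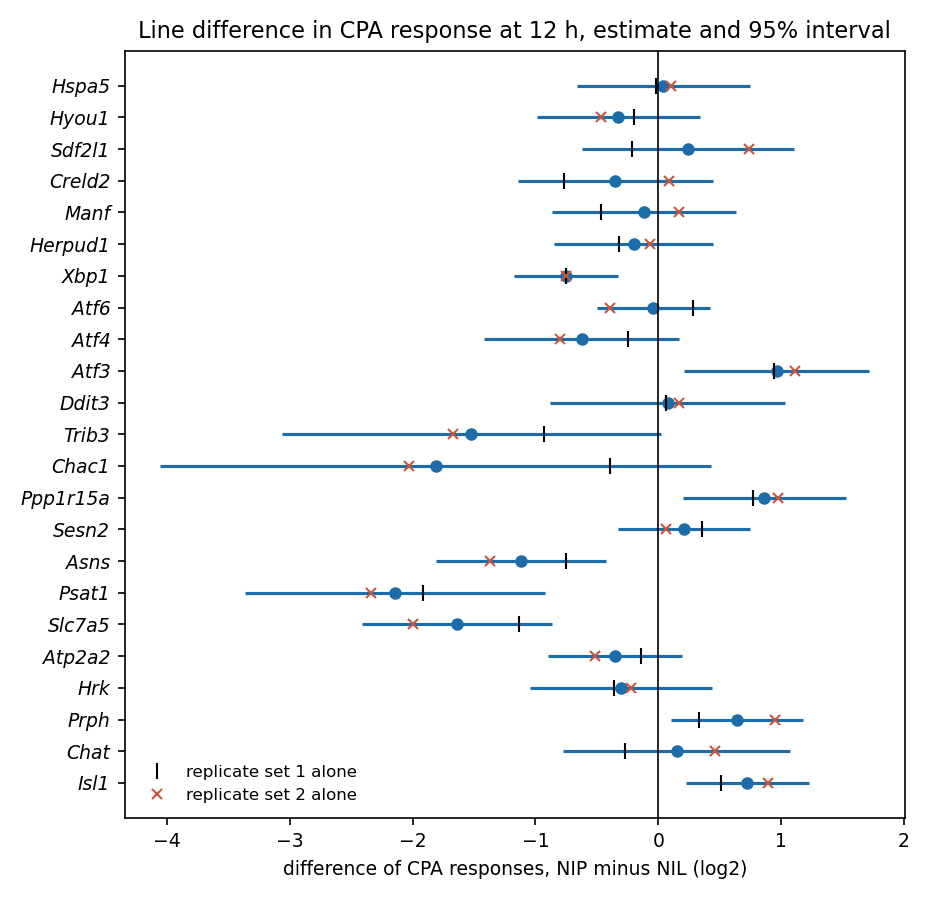
Line difference in CPA response at 12 h (x axis, log2, NIP minus NIL) for 23 named genes, with points for the estimate, lines for its 95% interval, and ticks and crosses for replicate sets 1 and 2 alone. Intervals of Hspa5, Ddit3 and Atf6 cover 0, those of Xbp1, Asns, Psat1 and Slc7a5 lie below it and those of Atf3, Ppp1r15a, Isl1 and Prph above it, all before adjustment over genes.

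Atf3 and Ppp1r15a had the larger estimates in NIP. Atf3, a stress-induced factor downstream of ATF4, measured 4.86 and 7.43 CPM in untreated NIL, 57.9 and 47.5 with CPA, 7.16 and 12.4 in untreated NIP, and 164 and 172 with CPA. Treated NIP libraries lay above treated NIL libraries, while the untreated libraries of the lines overlapped. Its line difference was 0.97 ± 0.36 (unadjusted p 0.015, adjusted p 0.719), whereas in the separate 36 h libraries it was -1.29 ± 0.36. Ppp1r15a encodes GADD34, which brings a phosphatase to eIF2α and restores translation. It went from 25.9 and 33.1 to 212 and 204 CPM in NIL, and from 31.6 and 36.2 to 440 and 439 in NIP. Here too the treated NIP libraries stood above the treated NIL ones, and the untreated libraries overlapped. The line difference was 0.87 ± 0.31 (unadjusted p 0.0136, adjusted p 0.695), and 0.72 ± 0.32 at 36 h.

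Of 19 ATF4 and CHOP targets, 12 rose in NIL and 17 in NIP, against 4.16% and 7.54% of all genes. These 19 had median responses of 1.63 and 1.79 and a median line difference of 0.21. That median was 0.00654 without CPA-treated NIP replicate 1 and 0.08 without untreated NIL replicate 2, and 0.46 without CPA-treated NIL replicate 1. An unadjusted p under 0.05 was seen in 4, all higher in NIP, as 2.33% of all genes were: Ppp1r15a, Ddit4, the cell cycle inhibitor Cdkn1a and the transcription repressor Nfil3. Ddit4, an inhibitor of mTORC1 signalling, went from 51.0 and 64.1 to 67.1 and 59.3 CPM in NIL, and from 20.3 and 33.0 to 65.7 and 71.8 in NIP. Untreated NIP lay below all other libraries, and the other 3 groups overlapped in part. The line difference was 1.24 ± 0.26 (adjusted p 0.131; DESeq2 adjusted p 0.0105) and 1.18 ± 0.26 at 36 h. Chac1, which degrades glutathione, measured 1.94 and 17.8 CPM in the untreated NIP libraries, and its line difference of -1.81 turned to 0.13 without replicate 2 of that group.

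Of 18 genes of serine, one-carbon and amino acid synthesis, 13 rose in NIL and 10 in NIP, against 4.16% and 7.54% of all genes. These 18 had medians of 2.08 and 1.28 and 14 line differences below 0 (median -0.26, against 0.02 over all genes). By comparison, 47.5% of all tested genes had a line difference below 0. Of 14 amino acid transporters, 11 rose in each line, with medians of 1.87 and 1.25 (median line difference -0.46). At an unadjusted p under 0.05, 4 transporters were lower in NIP and 1 higher, Slc43a1 at 1.66 ± 0.59 (adjusted p 0.650). Over all genes 2.61% were lower and 2.33% higher at that level. Slc43a1 rests on few reads, 16 and 17 counts in untreated NIL and 4 and 13 in untreated NIP. Of 20 cytosolic tRNA synthetases, 14 rose in NIL and 13 in NIP, with medians of 0.98 and 0.71 (line difference -0.13, 15 below 0). Before treatment, 6, 8 and 10 members of these lists were higher in NIP than in NIL, and 2, 2 and 0 lower, out of 4133 genes that differed (27.9%; 14.5% higher, 13.5% lower). The untreated comparison shares its libraries with the line difference, so these values stand side by side only.

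**Figure D3:**
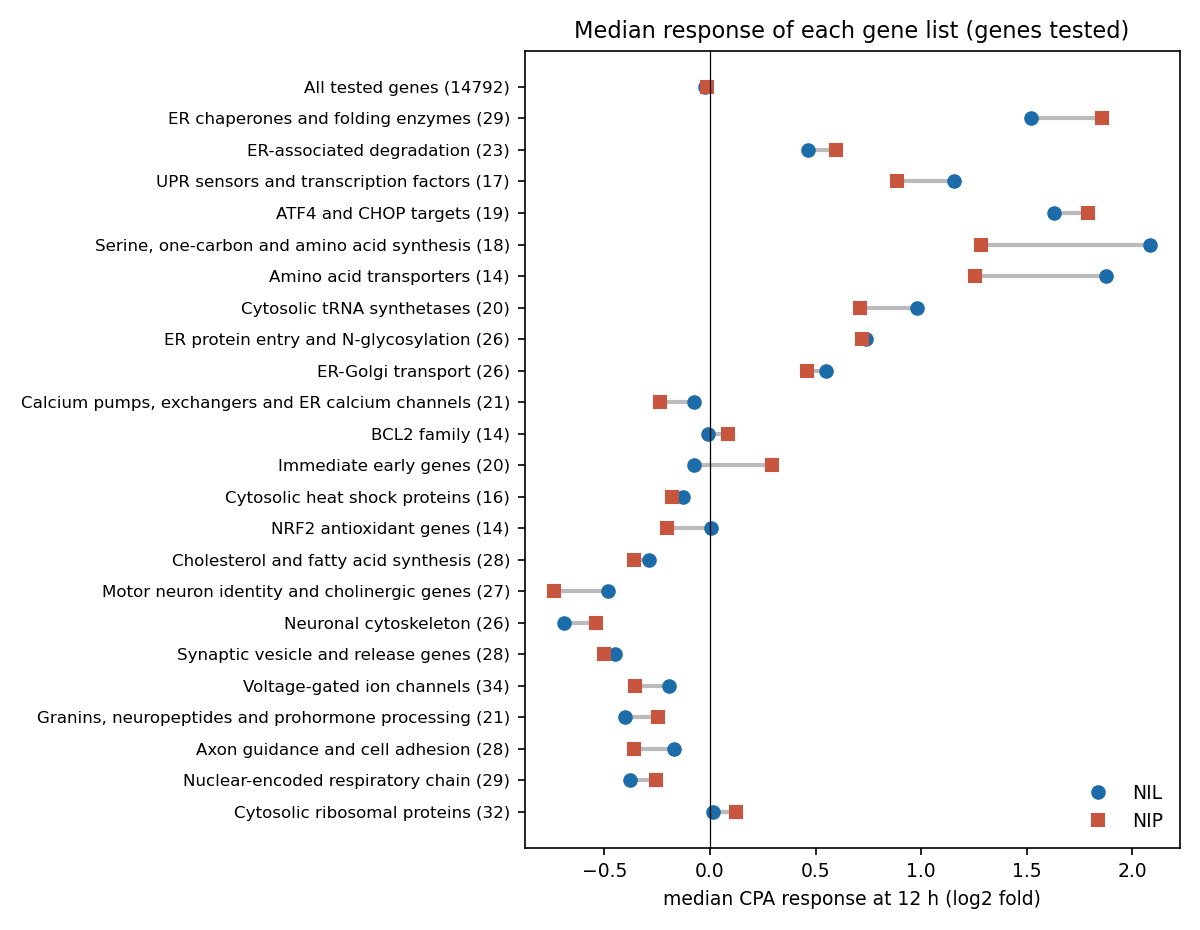
Median CPA response at 12 h (x axis, log2 fold) of each gene list in NIL (circles) and NIP (squares), with the number of genes tested in brackets. ER chaperone medians are 1.52 and 1.86, those of amino acid synthesis 2.08 and 1.28, and those of all tested genes -0.02 and -0.02.

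Slc7a5 (chr8:121881150-121907694, minus strand) encodes the LAT1 transporter for large neutral amino acids. It measured 74.8 and 96.5 CPM in untreated NIL, 654 and 592 with CPA, 204 and 456 in untreated NIP, and 816 and 700 with CPA. The untreated NIP libraries lay above the untreated NIL ones, and the treated NIP libraries were the highest. Slc7a5 rose by 2.88 ± 0.28 in NIL and 1.25 ± 0.26 in NIP, and the line difference was -1.64 ± 0.37 (interval -2.41 to -0.86, unadjusted p 0.00036, adjusted p 0.166; DESeq2 adjusted p 0.00758). Replicate sets 1 and 2 gave -1.13 and -2.0, and without untreated NIP replicate 2 the value was -1.03. In the 36 h libraries it was 0.61 ± 0.36.

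Psat1 (chr19:15904678-15947337, minus strand), an enzyme of serine synthesis, measured 33.4 and 52.8 CPM in untreated NIL, 326 and 279 with CPA, 161 and 291 in untreated NIP, and 416 and 303 with CPA. Treated NIL and NIP libraries overlapped, whereas untreated NIP lay above untreated NIL. It rose by 2.84 ± 0.42 in NIL, had a response of 0.69 ± 0.39 in NIP (adjusted p 0.283), and had a line difference of -2.14 ± 0.56 (adjusted p 0.378; DESeq2 adjusted p 0.0105). Asns, asparagine synthetase (chr6:7675169-7693254, minus strand), measured 125 and 154 CPM in untreated NIL, 497 and 452 with CPA, 247 and 454 in untreated NIP, and 584 and 514 with CPA. The higher untreated NIP library, replicate 2, reached the level of CPA-treated NIL. Its line difference was -1.12 ± 0.33 (adjusted p 0.438), and -0.57 without that library. At 36 h the line differences of Psat1 and Asns were 0.46 ± 0.56 and 0.44 ± 0.33.

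Atf5, a factor of the integrated stress response (chr7:44812256-44816658, minus strand), measured 18.9 and 34.6 CPM in untreated NIL, 180 and 202 with CPA, 42.1 and 95.5 in untreated NIP, and 152 and 206 with CPA. Treated libraries of both lines overlapped, and the untreated ones did not. It rose by 2.91 in NIL and 1.44 in NIP, and the line difference was -1.47 ± 0.29 (adjusted p 0.116; DESeq2 adjusted p 0.00328). It was -1.04 without untreated NIP replicate 2, and -0.79 ± 0.29 at 36 h. Pycr1, Pck2 and Mthfd2, enzymes of proline synthesis, gluconeogenesis and one-carbon metabolism, had line differences of -1.72, -1.29 and -1.35. Without that library they were -0.87, -0.66 and -0.35.

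The medians of these lists depended on single libraries. With untreated NIP replicate 2 left out, the median line difference was 0.01 for the synthesis genes, -0.12 for the transporters and 0.01 for the tRNA synthetases. With replicate 1 of that group left out instead, the medians were -0.73, -0.63 and -0.31. An alternative added after the data were seen left out replicate 2 with a block per line. There the medians were 0.20, -0.16 and 0.06, with 11 of 18, 5 of 14 and 12 of 20 members above 0. The median of the synthesis genes also came near 0 without CPA-treated NIP replicate 2 (-0.000735, with 9 of 18 above 0), untreated NIL replicate 1 (-0.0384) or CPA-treated NIL replicate 1 (-0.0847). Without either untreated NIP library, Slc7a5, Psat1 and Atf5 stayed below -1. At 36 h the medians of the same lists were 0.55, 0.38 and 0.34, with 16 of 18, 11 of 14 and 17 of 20 members above 0. Over all tested genes the 36 h median was 0.04, with 7996 of 14792 above 0. The part of these libraries in the result was not tested beyond these values.

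The composite element bound by ATF4 with C/EBP partners was searched as TGATGNAA on both strands. It is present in 3.97% of the promoter windows, and in 4.51% of genes with a window. It is in 4 of 15 synthesis genes with a window, 5 of 12 tRNA synthetases, 2 of 10 transporters and 6 of 16 ATF4 and CHOP targets, against 2 of 23 chaperones. Asns and Pycr1 are shown because both belong to the synthesis genes with an unadjusted p under 0.05. The match is in capitals, 23 to 16 bases before the start of Asns (chr6:7693210-7693459, minus strand) and 103 to 96 before that of Pycr1 (chr11:120643749-120643998, minus strand). Neither overlaps an ER stress element.
Asns: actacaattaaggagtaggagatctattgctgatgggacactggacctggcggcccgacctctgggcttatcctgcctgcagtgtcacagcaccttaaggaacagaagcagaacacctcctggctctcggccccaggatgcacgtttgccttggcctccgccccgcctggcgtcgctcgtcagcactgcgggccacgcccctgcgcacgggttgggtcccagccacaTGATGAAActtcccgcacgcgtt
Pycr1: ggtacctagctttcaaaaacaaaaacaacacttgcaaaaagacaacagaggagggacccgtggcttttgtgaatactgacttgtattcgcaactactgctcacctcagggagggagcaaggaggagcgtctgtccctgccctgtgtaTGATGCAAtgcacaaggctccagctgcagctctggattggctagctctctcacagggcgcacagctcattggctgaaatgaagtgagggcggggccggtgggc

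**Figure D4:**
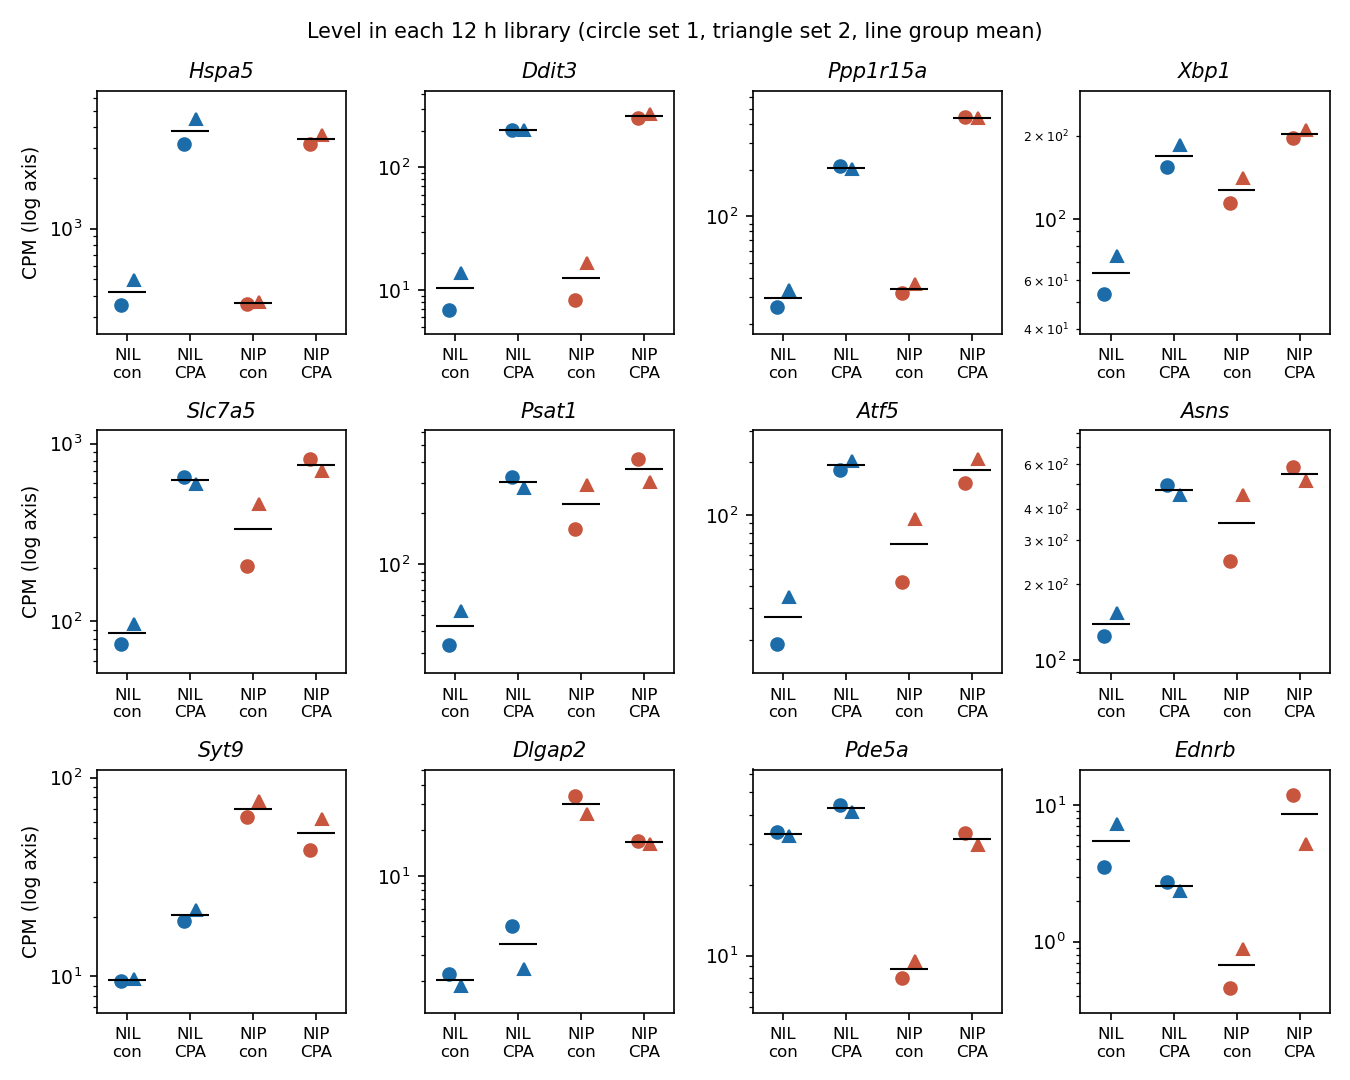
Level in each of the 8 libraries at 12 h in CPM (y axis, log scale, a separate range per gene) for 12 genes, with circles for replicate 1, triangles for replicate 2 and lines for group means. Treated levels of Hspa5 overlap between the lines, Slc7a5, Psat1 and Asns start higher in NIP, and Pde5a starts at 8.05 and 9.43 CPM in NIP.

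The genes with the smallest p-values were chosen after their values were seen, 12 in each direction, and are given as a description. They were taken among genes with at least 5 CPM in the highest group and the same sign in both replicate sets. Lgr5, at most 2.53 CPM, fell outside with a p of 5.97e-05 (line difference -3.54). All 24 were called by DESeq2, and 17 by edgeR with a block in each line. Those fits test the same contrast on the libraries that chose the genes, so these calls are not separate evidence. Pde5a, a phosphodiesterase that breaks down cGMP (chr3:122728947-122859374, plus strand), measured 33.8 and 32.4 CPM in untreated NIL, 44.3 and 41.4 with CPA, 8.05 and 9.43 in untreated NIP, and 33.4 and 29.8 with CPA. Untreated NIP was the lowest group and the higher of the CPA-treated NIP libraries lay in the untreated NIL range. It rose by 1.86 ± 0.18 in NIP and had 0.37 ± 0.17 in NIL (adjusted p 0.216), and the line difference was 1.49 ± 0.25 (adjusted p 0.0787). At 36 h, in other libraries, the difference was 1.73 ± 0.26.

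Ednrb, the endothelin B receptor (chr14:103814625-103844402, minus strand), measured 3.53 and 7.31 CPM in untreated NIL, 2.73 and 2.36 with CPA, 0.460 and 0.883 in untreated NIP, and 11.9 and 5.16 with CPA. Untreated NIP was the lowest group, on 14 and 19 counts, and CPA-treated NIP overlapped untreated NIL. Ednrb rose by 3.81 ± 0.56 in NIP, and the line difference was 4.77 ± 0.75 (adjusted p 0.0787), but 0.43 ± 0.80 at 36 h. Lhfp (chr3:53041528-53261679, plus strand) rose by 1.15 in NIP and had a line difference of 1.78 ± 0.31 (adjusted p 0.0813), and 2.02 ± 0.33 at 36 h. Rnd1 measured 0.756 and 0.836 CPM in untreated NIP and 11.9 and 10.9 with CPA, against 0.577 to 1.80 CPM in all 4 NIL libraries. Treated NIP stood alone, and the line difference was 2.87 ± 0.52 (adjusted p 0.0813). The other 8 with a higher response in NIP (Fbxl7, Ppp2r2b, Nrip1, Lmo4, Ppap2b, Ddit4, Palm3 and Grid1) ranged from 1.00 to 2.11.

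Syt9, a synaptotagmin of vesicle release (chr7:107370728-107548656, plus strand), had the smallest p of all genes. It measured 9.48 and 9.75 CPM in untreated NIL, 19.1 and 21.7 with CPA, 63.6 and 76.2 in untreated NIP, and 43.2 and 62.2 with CPA. Its levels went up in NIL and were lower with CPA in NIP, with no overlap of groups. Syt9 rose by 1.07 ± 0.17 in NIL, had -0.42 ± 0.15 in NIP (adjusted p 0.0816), and the line difference was -1.49 ± 0.23 (adjusted p 0.0755). At 36 h it was 0.95 ± 0.23, of opposite sign.

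Dlgap2, a postsynaptic scaffold gene (chr8:14095865-14847680, plus strand), was the 1 gene called in opposite directions. It measured 2.24 and 1.86 CPM in untreated NIL, 4.66 and 2.43 with CPA, 33.7 and 25.7 in untreated NIP, and 17.1 and 16.3 with CPA. NIP lay above NIL throughout, and within each line the treated and untreated libraries did not overlap. It rose by 0.79 in NIL and fell by 0.82 in NIP, and the line difference was -1.61 ± 0.29 (adjusted p 0.0813). Casz1, a zinc finger factor, fell by 1.55 in NIP and had a line difference of -1.15 ± 0.25 (adjusted p 0.137). Of the remaining lower genes, 8 (Fam196b, Atf5, Sgpp2, Amigo1, Zfp467, Lrrc8c, Radil and Bnc1) ranged from -3.29 to -1.09. The value of -3.29 is that of Bnc1, which had only 3 to 19 counts in the NIL libraries.

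Of 34 voltage-gated ion channel genes, 1 rose and 0 fell in NIL, and 2 rose and 9 fell in NIP, where 6.54% of all genes fell. Of their line differences 25 were below 0, as 47.5% were over all genes (median -0.17, or 0.00 without untreated NIL replicate 2). There were 5 with an unadjusted p under 0.05, all lower in NIP, as 2.61% of all genes were: Kcna2, Kcnq3, Kcnq5, Cacna2d1 and Cacna2d2. Kcnq3, a subunit of the M-type potassium channel, went from 2.38 and 2.21 to 3.61 and 3.23 CPM in NIL and from 47.4 and 64.7 to 25.1 and 35.1 in NIP, where it fell by 0.90. NIP lay far above NIL throughout, and the line difference was -1.44 ± 0.36 (adjusted p 0.270). Of 27 motor neuron identity and cholinergic genes, 6 fell in NIL and 9 in NIP, against 3.77% and 6.54% of all genes. Their median line difference was -0.14, with 16 of 27 below 0. An unadjusted p under 0.05 was seen in 5. It was higher in NIP for Isl1 and Prph (2.33% of all genes) and lower for Lhx3, Lhx4 and Slit2 (2.61% of all genes). Lhx4, a factor of spinal motor neurons, fell by 1.11 in NIL and 1.98 in NIP, with a line difference of -0.87 ± 0.35 (adjusted p 0.840). For Slit2, a guidance cue, it was -0.68 ± 0.27 (adjusted p 0.802), and Lhx3 had too few counts in NIP for a fold. Isl1, a factor of motor neuron identity, fell by 0.64 in NIL and had 0.09 ± 0.17 in NIP (adjusted p 0.789). Its line difference was 0.73 ± 0.24 at 12 h (adjusted p 0.604) and 0.83 ± 0.24 at 36 h. Prph, the intermediate filament peripherin, fell by 0.83 in NIL and had -0.19 in NIP, with line differences of 0.64 ± 0.25 at 12 h (adjusted p 0.813) and 0.61 ± 0.25 at 36 h. Chat, the acetylcholine-synthesising enzyme, had 0.15 (-0.77 to 1.08).

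For ER protein entry and N-glycosylation, 15 of 26 genes rose in NIL and 18 in NIP (median line difference 0.05), and for ER-Golgi transport 11 of 26 in each line (0.05). No member of either list had an unadjusted p under 0.05. Over all tested genes, 4.16% rose and 3.77% fell in NIL, and 7.54% rose and 6.54% fell in NIP. Of 26 neuronal cytoskeleton genes 13 fell in NIL and 9 in NIP (0.05). Of 28 synaptic vesicle and release genes 4 fell in NIL and 9 in NIP (0.05). Nrxn3, a presynaptic adhesion gene of that list, fell by 1.61 in NIP and had a line difference of -1.36 ± 0.30 (adjusted p 0.154). Of 28 axon guidance and adhesion genes 0 fell in NIL (3.77% of all genes) and 7 in NIP (6.54% of all genes), with a median line difference of -0.02. An unadjusted p under 0.05 was seen in 4, Sema3d, Epha7, Efna5 and Cntnap2, all lower in NIP (2.61% of all genes). Of 32 cytosolic ribosomal protein genes 0 were called in either line, and 30 line differences were above 0 (median 0.13, or -0.13 without untreated NIL replicate 2). By comparison, 47.5% of all tested genes had a line difference below 0. Of the 19 endoderm and endothelium markers, 17 line differences were below 0 (median -0.53, or -0.22 without CPA-treated NIL replicate 1 and -0.88 without CPA-treated NIP replicate 2), and 0 had an unadjusted p under 0.05. The part of these other cells in the line difference was not tested.

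The 36 h libraries share none with the 12 h ones and give a separate reading of the same contrast. Among them Rn45s, a ribosomal RNA precursor, took 38.6% of gene reads in untreated NIP replicate 1 and 38.3% in CPA-treated NIL replicate 2, with TMM factors of 0.654 and 0.740, and its part in the 36 h values was not tested. There 19 genes passed (0.128%), 12 higher in NIP (0.0811%) and 7 lower (0.0473%). Of these 19, 15 had the same sign at 12 h (78.9%) and 8 an unadjusted p under 0.05 at 12 h (42.1%): Atp2b4, Casz1, Hoxb4, Lhfp, Pde5a, Rasgrf2, Thbs1 and Vav3, each with the same sign. Over all tested genes, 54.3% had the same sign at both times. Of the 730 genes with an unadjusted p under 0.05 at 12 h, 496 did (67.9%). Among the 24 genes with the smallest p at 12 h, all 12 higher ones were above 0 at 36 h, and 6 of the 12 lower ones below 0.

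**Figure D5:**
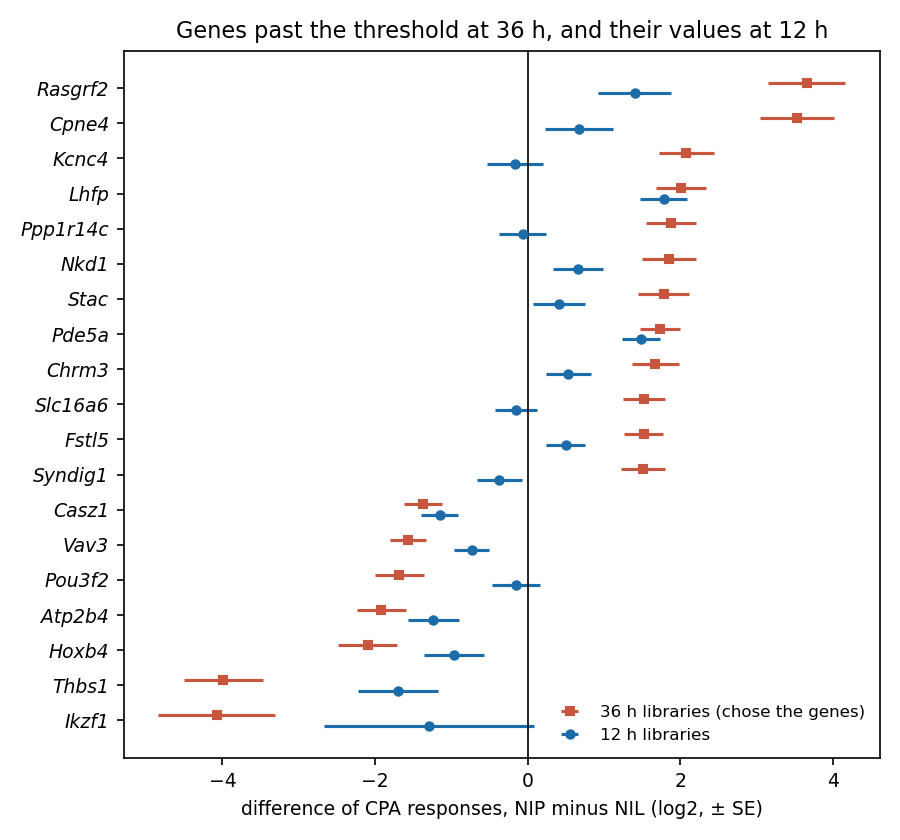
Line difference (x axis, log2, NIP minus NIL, ± SE) of the 19 genes that passed at 36 h, with squares for the 36 h libraries that chose them and circles for the 12 h libraries. Lhfp, Pde5a and Casz1 have similar values at both times, whereas Kcnc4, Ppp1r14c, Slc16a6 and Syndig1 change sign.

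A direct test of the line difference at 12 h minus that at 36 h, added after the data were seen, called 1 gene of 14792 (0.00676%), Syt9, at -2.44 ± 0.32 (adjusted p 0.0122). With Syt9 included, 745 genes had an unadjusted p under 0.05 (5.04%). For 21 genes of calcium pumps, exchangers and ER calcium channels the median line difference was -0.24, or 0.03 without untreated NIL replicate 2. At an unadjusted p under 0.05, 1 was higher in NIP (2.33% of all genes), Stim2 at 0.74 ± 0.27 (adjusted p 0.695). Another 2 were lower (2.61% of all genes), Atp2b3 at -1.10 ± 0.47 (adjusted p 0.910) and Atp2b4. Atp2b4, a plasma membrane calcium pump, was also among the genes that passed at 36 h. It measured 3.40 and 2.32 CPM in untreated NIL, 2.43 and 3.73 with CPA, 19.9 and 26.1 in untreated NIP, and 9.31 and 9.82 with CPA. NIP lay above NIL in every group, and the treated NIP libraries below the untreated ones. Its line difference was -1.23 ± 0.33 at 12 h (adjusted p 0.335) and -1.92 ± 0.32 at 36 h. Replicate sets 1 and 2 alone gave -0.62 and -2.08 at 12 h. Atp2a2, the pump that CPA blocks, rose by 1.47 in NIL and 1.12 in NIP, with a line difference of -0.35 (-0.90 to 0.19).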

How the data were processed

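The deposited files hold counts of reads per gene symbol, whole numbers for 24421 symbols and 5 summary lines, made by the authors. Per the submitters' processing notes, the tools were HTSeq 0.6.1p1, Picard, TopHat2 2.1.1 and Bowtie2 2.3.2, with GRCm38 or mm10 as the build. The strand setting and annotation release are not given in the sources used here, so overlapping genes cannot be separated if strands were pooled. Per the labels, total RNA was depleted of ribosomal RNA. Summary lines were left out of library sizes: in the 12 h libraries non-unique reads were 18.2% to 42.55% of all reads, reads outside genes 8.54% to 15.0% and ambiguous reads 0.318% to 0.458%. Rn45s took 5.18% to 13.8% of gene reads.

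All 20 libraries were fitted with edgeR 4.0.16 (R 4.3.3; filterByExpr by group, TMM, robust quasi-likelihood, a mean for each of 10 groups and a replicate block, 9 residual degrees of freedom, biological coefficient of variation 15.7%). P-values were adjusted by Benjamini-Hochberg over 14792 genes with a threshold of 0.05. A standard error is the log2 value divided by the square root of F. DESeq2 1.42.0 was an alternative. The scripts were tested on simulated counts.

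Replicate numbers come from the titles. Deviations of same-numbered libraries correlated in all 6 pairs of the 4 groups at 12 h (r 0.349 to 0.563). Libraries of the same number thus shared part of their deviation, and what lay behind the shared part was not tested. Replicates differed by more than sampling noise (chi-square per degree of freedom 41.4 to 133).

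The naming rule asked for genes past the threshold with at least 5 CPM in the highest group, and for up to 4 called members of each list. It named 0 genes, so the text uses a panel of 27 genes and, chosen after their values were seen, 12 genes in each direction with at least 5 CPM and the same sign in both replicate sets, and list members with an unadjusted p under 0.05. The contrast, lists and panel were chosen with earlier results of these data known. Alternatives were no block, a block per line, the 8 libraries alone, DESeq2, RLE scaling, no filter, Rn45s left out and each library left out. Some items among the genes with the smallest p and the markers are not reported here.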

Additional observations from a re-analysis of the deposited data

Results flagged for a closer look

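In the 36 h libraries the CPA responses of the lines differed by the test of the difference itself in 19 genes, and none of these passed at 12 h. Those with a higher response in NIP were Rasgrf2 (3.66), Cpne4 (3.53), Kcnc4 (2.08), Lhfp (2.02), Ppp1r14c (1.88), Nkd1 (1.85), Stac (1.78), Pde5a (1.73), Chrm3 (1.68), Slc16a6 (1.53), Fstl5 (1.52) and Syndig1 (1.52), as log2 differences, NIP minus NIL. Those with a lower response in NIP were Ikzf1 (-4.07), Thbs1 (-3.98), Hoxb4 (-2.10), Atp2b4 (-1.92), Pou3f2 (-1.68), Vav3 (-1.57) and Casz1 (-1.37). Without the replicate block 0 genes passed at 36 h and 651 had an unadjusted p under 0.05 (edgeR).

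Syt9 had a line difference at 12 h that differed from that at 36 h by -2.44 on the log2 scale, again by a test of the difference itself. Its level was 58.6 and 70.4 CPM in untreated NIP at 36 h and 101 and 93.5 with CPA, against 13.1 and 17.4 and then 12.0 and 11.3 in NIL.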

How the results depend on the processing

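For the line difference at 12 h the count of called genes was 0 with the replicate block, 0 without it (349 at an unadjusted p under 0.05), 24 with a block per line, 51 with DESeq2 and 4 with no filter. It was 0 with RLE scaling, with Rn45s left out, and with the 8 libraries alone. Leaving out single libraries gave 0 to 9 genes: 9 without untreated NIP replicate 1, 2 without CPA-treated NIP replicate 2 and 0 in each other case. An alternative added after the data were seen, leaving out untreated NIP replicate 2 with a block per line, gave 0. Dropping the block lowered the calls to 327 in NIL, 696 in NIP and 0 for the line difference at 36 h. Leaving out single libraries gave 449 to 657 in NIL and 858 to 1202 in NIP, with fewer libraries in each fit. DESeq2 gave 1525 and 2288. A lone library in a group is assumed to vary like the other groups.

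Over 88 named genes and 16 settings, 1321 of 1408 values kept direction and side of the threshold, 56 passed it and 31 from 13 genes changed sign. All 13 belong to the panel of 27 genes. The other named genes were chosen by their p-values in these same libraries, so their direction was nearly fixed in advance. The pooled count is therefore no measure of how stable a gene chosen without regard to its values would be. Derl3 was -0.0594 without the block. With single libraries left out, ranges were -0.15 to 0.26 for Hspa5, -0.0438 to 0.585 for Sdf2l1, -0.55 to 0.27 for Manf, -1.24 to 4.66 for Derl3, -0.22 to 0.14 for Atf6, -1.12 to 0.0789 for Atf4, -0.21 to 0.405 for Ddit3, -2.73 to 0.13 for Chac1, -4.27 to 0.87 for Slc7a11, -0.54 to 0.00399 for Hrk, -0.29 to 0.54 for Chat and -0.64 to 1.76 for Phox2a. Under the added alternative Herpud1 was 0.00402, Derl3 -1.25, Atf6 0.0242, Atf4 0.14, Chac1 0.30, Slc7a11 1.22 and Chat -0.28. Slc7a11 had 7 and 0 counts in untreated NIL and 8 and 16 in untreated NIP. Phox2a had 6 and 18 counts in untreated NIL and 2 and 5 in CPA-treated NIL. The cause of the sign changes was not tested. With 2 libraries in each group the median standard error of 0.30 limits what can be seen.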
